A study of Homo sapiens with 6 samples.

Results

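GSX2 regions inside very long genes were the 685 occupied regions, of 15743 merged regions in all, that lay within a protein-coding gene spanning 500 kb or more and over 1 kb from every annotated gene end. A region is a stretch where peaks of the 3 replicates overlap by at least 1 bp. It was kept when at least 2 replicates had a peak there, which 7105 regions did, so the 685 made up 9.64% of those (95% Wilson interval 8.98 to 10.3%, counting error only). Its place was the median of the replicates' summits. The regions were thus chosen by peak presence in at least 2 lists and by gene length, and neither is a finding here. RefSeq lists 314 protein-coding genes of this length on chromosomes 1 to 22 and X, with spans of 500.047 to 2474 kb and a median of 723 kb.

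The cells were H9, an established human embryonic stem cell line, differentiated toward progenitors like those of the lateral ganglionic eminence. All carried a doxycycline-inducible TRE3G transgene for wild-type GSX2 with a 2xFLAG tag. They received 100 ng/mL doxycycline for 12 hours from day 10, and the M2 antibody, raised against FLAG, was used for chromatin harvested at day 10.5, in 3 replicates of this 1 group. The tagged protein is therefore induced rather than native, and no values from inputs or from cells lacking the transgene entered. The labels do not say whether replicates were separate cultures, so their spread may be partly technical. The peak lists hold no read counts, and depth is unknown. They contain 9859, 7471 and 9122 peaks in replicates 1, 2 and 3.

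GSX2 is a homeodomain transcription factor that patterns the lateral ganglionic eminence, the embryonic source of striatal projection neurons and olfactory interneurons. Homeodomains of its kind recognise short words built on TAAT. Very long human genes consist almost wholly of introns, many are expressed in neurons, and their products include adhesion molecules, receptors, channels and synaptic scaffolds. Introns of such genes can carry enhancers and additional start sites.

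A small set of these regions lay at annotated start sites within the long gene, and their sequences could be read from RefSeq. The table of start sites (build GRCh38.p14, the same assembly as hg38) covers 262 of the 314 genes and 589 of the 685 regions. Of those 589, 19 (3.23%) were within 1 kb of an internal start, and all 19 starts belonged to the long gene itself. In 6 of the 19 the summit fell in the 250 bases just before the start. The 4 of these found in all replicates lay before 5 starts, of which 2 are neighbouring starts of ADGRL2. The window before the second ADGRL2 start (chr1:81800352-81800601), which holds no TAAT on either strand, lies mostly after the first start and is not printed. The other 4 windows are shown 5′ to 3′ on the strand of the gene, in lower case, with every TAAT or its reverse complement ATTA in capitals, because both the peak and the bases are known there.
MYO16, chr13:108629361-108629610, plus strand: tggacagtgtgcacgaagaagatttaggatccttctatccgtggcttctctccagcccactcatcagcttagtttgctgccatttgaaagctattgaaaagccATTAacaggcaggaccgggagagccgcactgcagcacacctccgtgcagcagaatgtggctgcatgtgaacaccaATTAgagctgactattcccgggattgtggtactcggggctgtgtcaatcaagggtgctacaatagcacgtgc
ADGRL2, chr1:81800126-81800375, plus strand: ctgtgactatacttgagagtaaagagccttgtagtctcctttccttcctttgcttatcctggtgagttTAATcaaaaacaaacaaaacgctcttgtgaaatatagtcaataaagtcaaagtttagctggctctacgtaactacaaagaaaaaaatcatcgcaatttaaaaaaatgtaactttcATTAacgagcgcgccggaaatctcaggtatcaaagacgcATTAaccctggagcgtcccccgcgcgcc
SCHIP1, chr3:159839710-159839959, plus strand: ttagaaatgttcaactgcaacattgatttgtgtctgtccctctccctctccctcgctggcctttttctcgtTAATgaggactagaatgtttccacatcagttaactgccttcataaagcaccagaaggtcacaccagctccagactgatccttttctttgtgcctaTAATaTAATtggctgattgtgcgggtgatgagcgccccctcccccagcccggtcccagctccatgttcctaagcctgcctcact
ZFHX3, chr16:73059022-73059271, minus strand: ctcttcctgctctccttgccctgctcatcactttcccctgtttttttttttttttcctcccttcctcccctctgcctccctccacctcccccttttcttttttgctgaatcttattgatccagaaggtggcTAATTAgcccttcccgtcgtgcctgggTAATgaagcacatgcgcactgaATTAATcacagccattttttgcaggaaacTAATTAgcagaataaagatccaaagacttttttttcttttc

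The MYO16 region, in a gene for an unconventional myosin, had fold enrichments of 26.1, 26.1 and 10.9 in replicates 1, 2 and 3, and its summit was 152 bases before a start that lies 134 kb into the gene. Replicate 3 was well below the other two there. At ADGRL2, a latrophilin adhesion receptor gene, the values were 8.60, 13.6 and 7.45, with the summit 19 bases before a start 494 kb into the gene and 245 bases before the next start. The SCHIP1 window, inside a gene of 624 kb, had values of 13.7, 5.71 and 9.25. ZFHX3, a zinc finger homeobox gene, had 8.97, 6.87 and 6.24 at a start 833 kb from its 5′ end. Its window held 7 matches to TAAT, counting both strands and overlapping matches, and 2 to the palindrome TAATTA, which itself contains TAAT on each strand. The MYO16, first ADGRL2 and SCHIP1 windows held 2, 3 and 3 matches to TAAT and 0 to TAATTA. The window of the next ADGRL2 start held 0 to either word.

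Over the 7 windows of this length that held the summit of a region inside a very long gene, 6 contained TAAT and 2 contained TAATTA; the ADGRL2 region counts in 2 of the 7. The shares over the 613 windows of very long genes were 53.3% for TAAT and 5.87% for TAATTA. The shares over all 34961 windows of the table were 47.4% for TAAT and 4.36% for TAATTA. Over the 237 windows that held the summit of any region of at least 2 replicates they were 87.3% and 18.1%. A match describes the letters and does not show where the protein sat.

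Peaks were denser around internal starts than elsewhere in the same genes, in every replicate. The stretches within 1 kb of an internal start made up 0.323% of the eligible bases, meaning bases inside the 262 genes and over 1 kb from gene ends. They held 20, 21 and 21 peaks in replicates 1, 2 and 3, or 29.1, 30.5 and 30.5 per Mb. The remaining bases held 3.77, 2.88 and 3.30 peaks per Mb. The ratio was 7.71, 10.6 and 9.24, a mean of 9.19 ± 1.45 (SD, n = 3; two-sided exact paired permutation test over replicates, p = 0.25, the smallest that 3 pairs allow). This comparison was added after seeing the data, and it rests on about 20 peaks in each list. Among the 19 regions, 9 were in all 3 replicates (47.4%), against 46.7% of the regions farther away. Besides those shown, they included regions after internal starts of PTPRD, a receptor tyrosine phosphatase gene (13.8, 8.93 and 15.0-fold), and GRM5, a metabotropic glutamate receptor gene (10.2, 6.78 and 11.9-fold).

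Seen over the whole gene body, very long genes held peaks at about the density of shorter genes. Peaks of each replicate were counted on their own here, with no need for a second replicate. Very long genes had 3.75, 2.88 and 3.31 peaks per Mb of eligible sequence, and genes under 500 kb had 3.78, 2.86 and 3.57. The ratio was 0.993, 1.01 and 0.927, a mean of 0.976 ± 0.044 (SD, n = 3; two-sided exact paired permutation test over replicates, p = 0.75, with 0.25 the smallest possible). Replicates lay on both sides of 1, so no direction was resolved. Stretches between genes had 2.25, 1.73 and 2.10 peaks per Mb, and the ratio of very long genes to these was 1.64 ± 0.05 (SD, n = 3; two-sided exact paired permutation test over replicates, p = 0.25). The length between genes includes assembly gaps, which were not removed, which lowers its density.

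Within the very long genes, density was lower in the longer ones. Genes of 500 to 700 kb held 3.90 ± 0.58 peaks per Mb (SD, n = 3), close to the 4.06 ± 0.52 of genes of 250 to 500 kb. The density was 3.27 ± 0.48 in genes of 700 to 1000 kb, 3.02 ± 0.32 in those of 1000 to 1500 kb and 2.54 ± 0.24 in the 18 genes of 1500 kb or longer. Each replicate had the same order over these last 4 classes. The ratio of the longest class to that of 500 to 700 kb was 0.592, 0.669 and 0.701 (mean 0.654 ± 0.056, SD, n = 3; two-sided exact paired permutation test over replicates, p = 0.25, the smallest possible). Genes under 50 kb held 2.67 ± 0.43 peaks per Mb, so genes of intermediate length had the highest values.

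**Figure D1:**
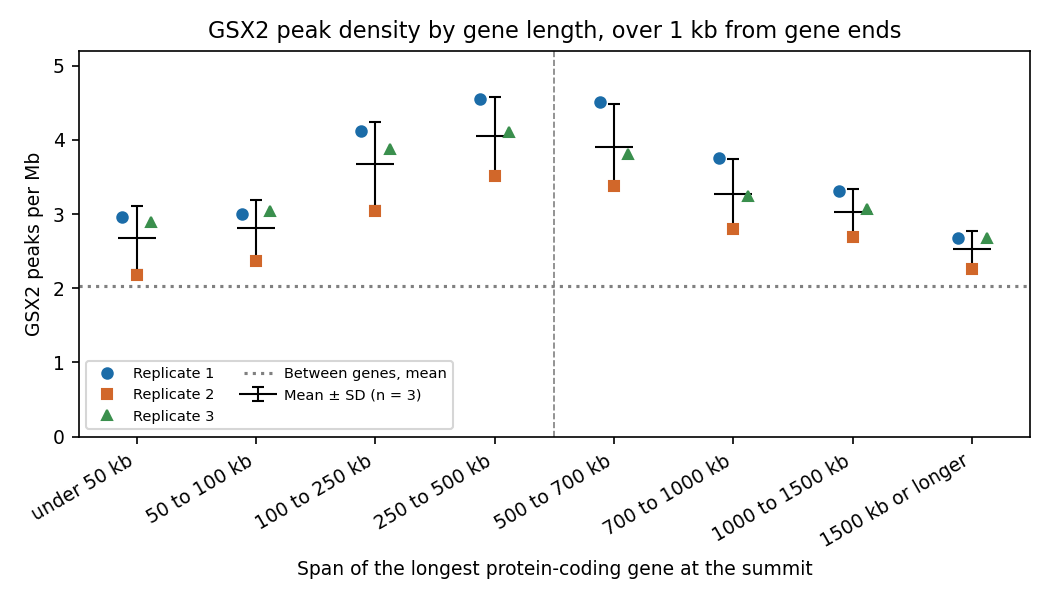
GSX2 peaks per Mb (vertical axis) by the span of the longest protein-coding gene at the summit (horizontal axis), with 1 point per replicate and the mean ± SD over 3 replicates; the dashed line marks 500 kb and the dotted line the mean between genes. The values reach 4.06 peaks per Mb at 250 to 500 kb and are 2.54 at 1500 kb or longer.

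Of the 685 regions, 333 were found in all 3 replicates (48.6%, 95% Wilson interval 44.9 to 52.4%) and 352 in 2. The share was 51.0% (49.1 to 52.9%) inside shorter genes and 50.3% (48.1 to 52.4%) between genes, and these intervals overlap. Replicate 2, which has the fewest peaks, was the missing one in 154 of the 352, replicate 3 in 113 and replicate 1 in 85. A further 826 regions inside these genes had a peak of 1 replicate only and were not kept.

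Fold enrichment is the authors' own value for each peak, the signal at the summit over the caller's background. Its median over the 685 regions was 8.31, 8.15 and 8.13 in replicates 1, 2 and 3, against 8.31, 8.54 and 8.33 inside shorter genes. The ratio of medians was 0.999, 0.955 and 0.976 (mean 0.977 ± 0.022, SD, n = 3; two-sided exact paired permutation test over replicates, p = 0.25, the smallest possible). It was below 1 in each replicate, in replicate 1 only at 0.9995, and some other settings put replicates on both sides of 1. No direction was resolved, and this design cannot reach a smaller p. Peak width had medians of 303, 235 and 242 bp, against 307, 239 and 246 bp inside shorter genes. In regions of all 3 replicates the summits lay within a median of 29 bp of one another, the same distance as in shorter genes. Over the 3 replicates of such a region, fold enrichment had a coefficient of variation of 19.8% at the median in both classes. Across the 333 regions, Spearman's rho between replicates was 0.545, 0.555 and 0.504, a description over regions that share their libraries.

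The strongest regions inside very long genes were far above the median. Mean fold enrichment over the 333 regions of all replicates ran from 5.42 to 44.3, with a median of 9.38, and 12 exceeded 20. Of the 100 strongest regions of the series found in all replicates, 7 were inside very long genes, against 9.41% of all 3537 such regions. Presence in the lists favours strong peaks, so these levels describe regions that were already called.

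ADGRL3, a latrophilin gene related to ADGRL2, held the first (chr4:61506202-61506833), with 35.0, 46.2 and 51.6-fold enrichment. It lay 306 kb from the 5′ end of a gene of 878 kb. PTPRG, a receptor tyrosine phosphatase gene, held the second (chr3:61682503-61683236), with 44.7, 53.4 and 32.5-fold. These ranges overlap, so their order is not resolved. DPYD, which encodes the enzyme that starts pyrimidine breakdown, held a region (chr1:97525553-97526084) with 32.1, 31.9 and 37.0-fold. In CACNA2D3, a calcium channel subunit gene, the values were 32.3, 24.2 and 37.7-fold (chr3:54821062-54821618). In SEMA5A, a semaphorin guidance gene, they were 27.1, 28.3 and 32.8-fold (chr5:9196568-9197210). All 5 exceeded 24-fold in every replicate.

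The other 7 of these 12 regions had means of up to 25.4. They lay in ST6GALNAC3, a sialyltransferase gene (24.0, 21.8 and 30.3-fold), and NBEA, whose product acts in membrane trafficking (18.7, 22.7 and 26.7-fold). PSD3, an exchange factor gene, had 22.2 ± 1.04 (SD, n = 3). DPP10, which encodes a potassium channel partner, had 22.1 ± 2.74, and TASP1, a protease gene, had 21.3 ± 1.31 (SD, n = 3). ERBB4, the neuregulin receptor gene, had 26.9, 18.5 and 17.7-fold only 2.72 kb from its 5′ end (chr2:212535812-212537124). MYO16 is described above. The summits of each of the 12 regions lay within 27 bp of one another across replicates.

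**Figure D2:**
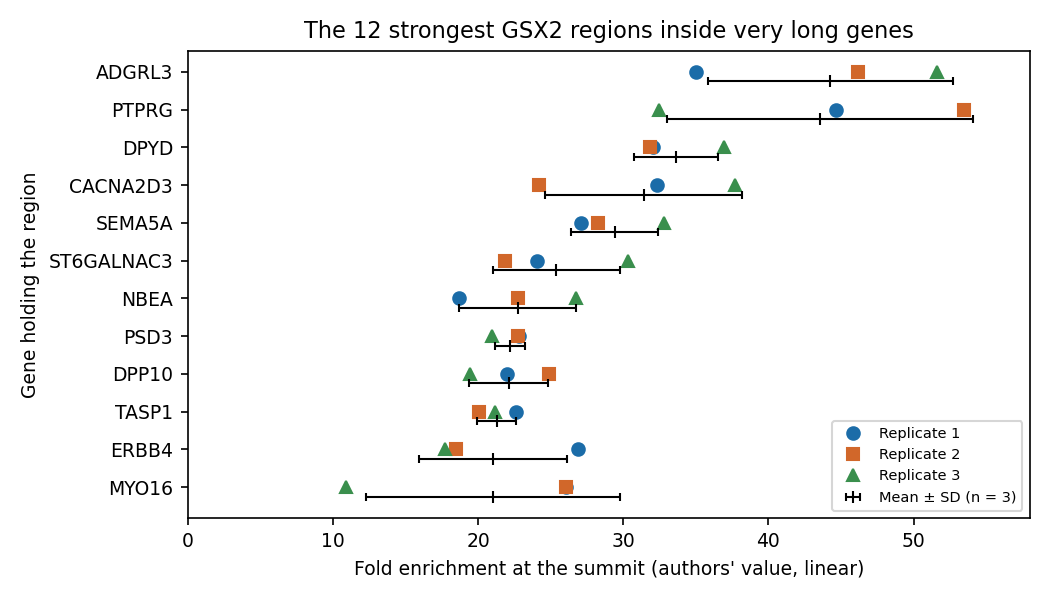
Fold enrichment at the summit (horizontal axis, linear) of the 12 strongest regions in all 3 replicates, named by the gene that holds each, with 1 point per replicate and the mean ± SD over 3 replicates. ADGRL3 and PTPRG reach means of 44.3 and 43.5, and the MYO16 values run from 10.9 to 26.1.

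Most very long genes held a region, and a few held many. At least 1 region lay in 250 of the 314 genes (79.6%), and a region of all 3 replicates in 185 (58.9%). Among all 19974 protein-coding genes the share with a region of at least 2 replicates inside and over 1 kb from gene ends was 10.7%, and among genes under 500 kb 9.59%. Length alone gives a long gene more places to hold a region, so these shares cannot be compared directly. The median gene had 2 regions, or 2.05 per Mb; 77 genes had 1, 73 had 2, 40 had 3, 26 had 4, and 34 genes (10.8%) had 5 or more. Those 34 genes held 239 of the 685 regions (34.9%), and the 10 genes with most held 97 (14.2%). Across the 314 genes Spearman's rho with span was 0.189 for the number of regions and −0.119 for regions per Mb, a description over genes, which are not replicates.

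**Figure D3:**
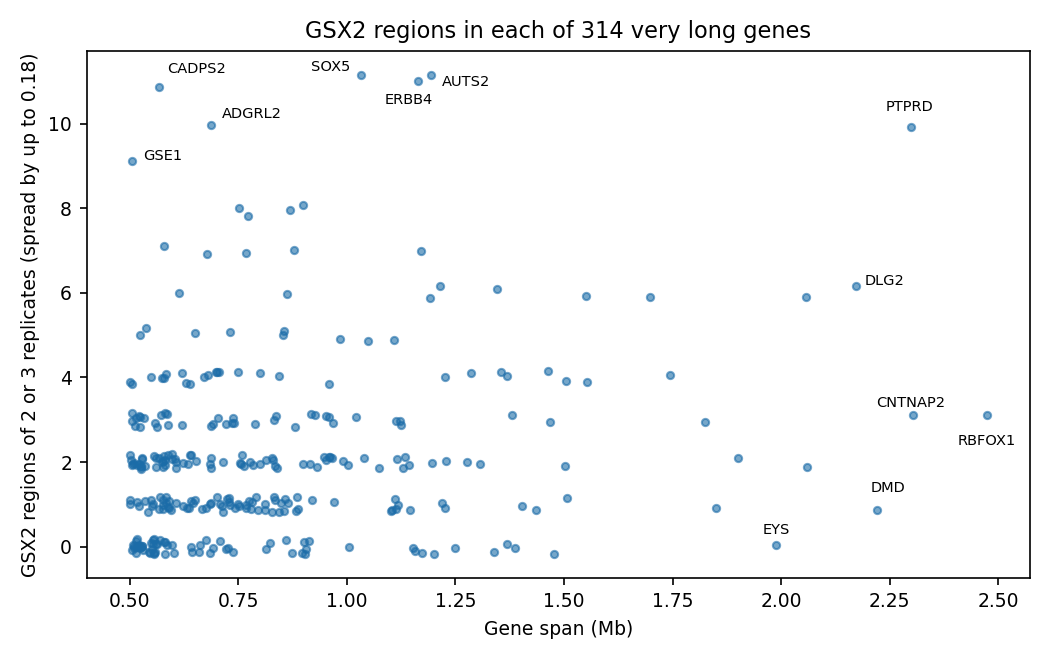
Number of GSX2 regions (vertical axis, points spread by up to 0.18 to separate them) against gene span in Mb (horizontal axis) for 314 very long genes. ERBB4, SOX5, CADPS2 and AUTS2 have 11 regions each, while EYS, at 1987 kb, has 0 and DMD, at 2220 kb, has 1.

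ERBB4, SOX5, CADPS2 and AUTS2 each held 11 regions. ERBB4 had 9, 11 and 12 peaks in replicates 1, 2 and 3, and 6 of its regions were in all 3. They were spread over 1145 of its 1163 kb, from 2.72 kb to 1148 kb from the 5′ end, with the strongest at the 5′ side and the next at 10.9-fold. SOX5, a SOXD transcription factor gene, had 13, 10 and 14 peaks and 5 regions in all 3. Its regions stood in 700 kb of a span of 1033 kb, none closer to the 5′ end than 222 kb. The strongest, 674 kb from that end, had 21.4, 12.8 and 21.5-fold enrichment. AUTS2, a chromatin regulator gene, had 11, 9 and 14 peaks, but only 2 of its 11 regions were in all replicates. The highest mean in AUTS2 was 10.7-fold and the median 7.25-fold, against medians of 7.06-fold in SOX5 and 9.45-fold in ERBB4.

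CADPS2, a gene for vesicle exocytosis, differed in spacing from ERBB4, SOX5 and AUTS2. Its 11 regions, 9 of them in all replicates, lay in a gene of 568 kb, or 20.2 regions per Mb, the highest value of the 314 genes. The median gap between its neighbouring regions was 6.06 kb, against 59.7 kb in ERBB4, 35.9 kb in SOX5 and 91.5 kb in AUTS2. The strongest had 8.40, 14.6 and 18.8-fold enrichment (chr7:122437016-122437397), and 10 of the 11 were within 121 kb of the gene's end of lower coordinate. The lists give 14, 9 and 11 peaks there.

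The next genes by number were PTPRD, ADGRL2, GSE1, NPAS3, LRBA and SOX6. PTPRD had 10 regions over 2299 kb, at 4.39 per Mb, and ADGRL2 had 10 in 688 kb, at 15.0 per Mb, with 12 peaks in each replicate. GSE1, a gene for a corepressor-associated protein, had 9 regions in 507 kb. At 18.9 per Mb, with a median gap of 17.0 kb, GSE1 was close to CADPS2 in density. NPAS3, a bHLH-PAS factor gene, LRBA, a vesicle trafficking gene, and SOX6, a SOXD gene, had 8 each. Replicates differed most in SOX6, with 12, 6 and 10 peaks. Over all genes with at least 2 regions, 436 gaps between neighbours had a median of 113 kb, and 40 were under 10 kb.

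**Figure D4:**
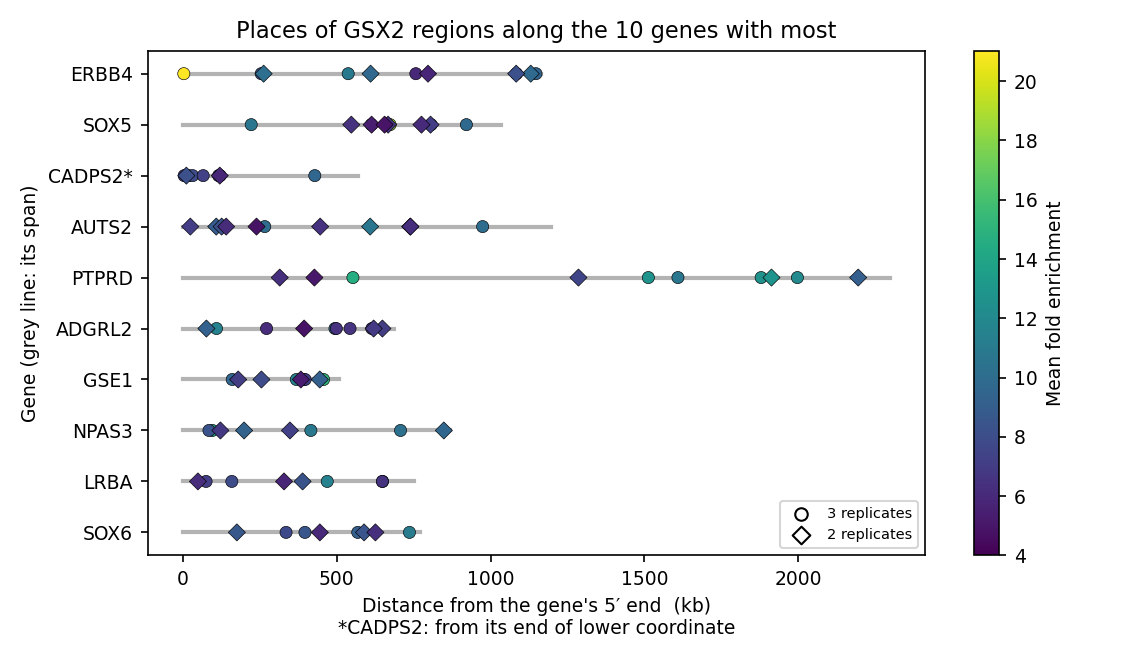
Places of GSX2 regions along the 10 genes with most, as distance in kb from the 5′ end (horizontal axis; CADPS2 from its end of lower coordinate); grey lines are gene spans, circles regions of 3 replicates, diamonds regions of 2, and colour is mean fold enrichment. The ERBB4 regions cover 1145 kb, and 10 of the 11 in CADPS2 lie within 121 kb of that end.

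Gene groups were described with 12 lists, of whose 327 genes 177 are very long; 33 of these stand in more than 1 list. The background is the 79.6% of all very long genes that held a region and their 3.31 ± 0.43 peaks per Mb (SD, n = 3). With 8 to 40 very long genes in a list, shares from 70.6% to 92.9% were found, around that background, and the counts of genes hit therefore set no list apart. The lists differed more in how many peaks their genes held.

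Genes of the ganglionic eminence and striatum held 6.32 to 7.87 peaks per Mb in the 3 replicates (7.32 ± 0.88, SD, n = 3). The lists were chosen with earlier results of these data known, so this value describes the list and is not independent support. A region lay in 13 of the 14, with a median of 4.5 regions per gene, against 2 over all very long genes, and 7 of the 14 had 5 or more. ERBB4, SOX5 and AUTS2 had 11 regions each, NPAS3 and SOX6 had 8, RARB, a retinoic acid receptor gene, had 7, and ZFHX3 had 5. All 5 regions of ZFHX3 were in 3 replicates, the strongest with 15.3, 10.9 and 16.4-fold enrichment, while 1 of the 7 in RARB was, with 20.2, 9.43 and 22.2-fold. FOXP1, a forkhead factor gene of striatal neurons, had 4, and FOXP2, PDE1A, TSHZ2, NRG1 and RGS6 had 2 each. PDE10A, a phosphodiesterase gene typical of striatal projection neurons, had 0 regions, with 0, 0 and 1 peaks in replicates 1, 2 and 3.

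Transcription and RNA regulators held 5.42 ± 0.46 peaks per Mb (SD, n = 3), with a region in 24 of 26 genes. Of these genes, 9 are also in the ganglionic list. Those 9 held 8.80 ± 1.03 peaks per Mb, and the other 17 held 3.64 ± 0.17 (SD, n = 3), near the value of all very long genes. The 5 genes that are only in the ganglionic list held 4.75 ± 0.71, and without ERBB4 the other 4 held 3.05 ± 0.94 (SD, n = 3; left out after seeing the data). RBFOX1, a splicing factor gene and the longest of the 314 at 2474 kb, had 3 regions, and CELF2 and ZNF804B had 0.

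Adhesion molecules and receptors were spread on both sides of the background. The synaptic adhesion, neurexin and latrophilin list held 3.74 ± 0.34 peaks per Mb, with a region in 18 of 22 genes. ADGRL2 led it with 10 regions, followed by NLGN1, a neuroligin gene, with 8. NLGN1 had 13, 11 and 6 peaks by replicate. CNTNAP2, the second longest gene at 2304 kb, had 3 regions. Receptor tyrosine phosphatases and kinases held 3.94 ± 0.43 peaks per Mb, with 7 of 9 genes hit, led by ERBB4 and PTPRD. Axon guidance genes held 3.73 ± 0.90, with 10 of 11 hit, led by the Slit receptor gene ROBO1 (7 regions; 16, 8 and 5 peaks) and SEMA3A (5 regions; 6, 5 and 5 peaks).

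Cadherins, protocadherins and catenins held 2.30 ± 0.31 peaks per Mb, with 10 of 11 genes hit, led by the alpha-catenin gene CTNNA2 and by FAT3 with 4 regions each. The strongest CTNNA2 region had 17.3, 21.8 and 19.3-fold enrichment. Immunoglobulin-type adhesion molecules held 2.74 ± 0.52, with 8 of 11 hit; KIRREL3 had 4 regions and SDK1 had 3. Ion channels and their subunits held 2.39 ± 0.58, with 12 of 13 hit; FGF14 and FGF12, genes for intracellular channel-binding factors, had 3 each. Glutamate, GABA and acetylcholine receptors held 2.10 ± 0.28, with 7 of 8 hit; GRM7 had 3 regions and GRM5 had 2. No gene of these 4 lists had 5 or more regions.

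Signalling enzymes and scaffolds held 3.13 ± 0.44 peaks per Mb, with 32 of 40 genes hit, led by the ankyrin gene ANK2 (7 regions; 5, 9 and 5 peaks). Genes of common fragile sites, which break under replication stress, held 2.40 ± 0.25, with 24 of 28 hit. Their median span was 1375 kb, against 723 kb over all very long genes; the part of span in this value was not tested. MACROD2 and DAB1, an adaptor gene of reelin signalling, had 6 regions each, but none of those in DAB1 was in all replicates. Muscle, matrix and basement membrane genes held 1.80 ± 0.42, with 12 of 17 hit; LPP had 3 regions, and DMD, the dystrophin gene, had 1 in 2220 kb. The 137 very long genes in no list held 3.36 ± 0.52.

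**Figure D5:**
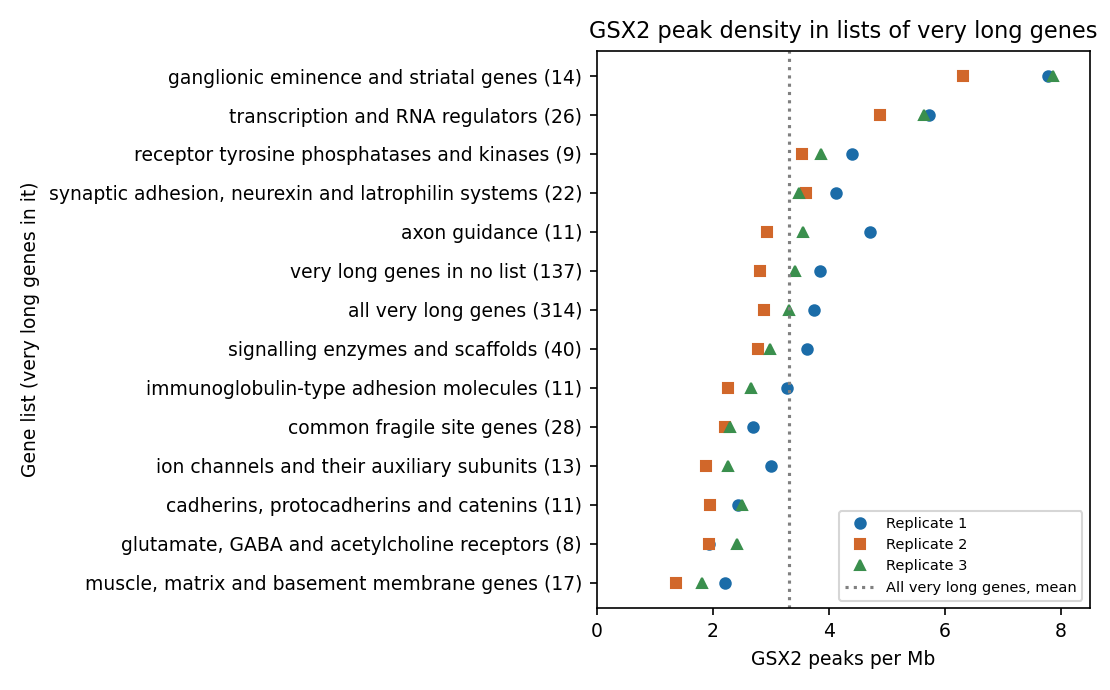
GSX2 peaks per Mb (horizontal axis) in each gene list (number of very long genes in brackets), with 1 point per replicate; the dotted line is the mean of all very long genes, 3.31. The ganglionic eminence and striatal list lies at 6.32 to 7.87 and the muscle and matrix list at 1.36 to 2.21. The lists were chosen with earlier results of these data known.

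The 64 genes without a region were not all short. The 5 longest of them were EYS, an extracellular matrix gene of photoreceptors (1987 kb), CCSER1 (1478 kb), GALNT13, a glycosyltransferase gene (1388 kb), IL1RAPL1, a synaptic adhesion gene (1369 kb), and CNTN5, a contactin gene (1338 kb). Each had peaks that did not recur. EYS had 2, 1 and 3 peaks in replicates 1, 2 and 3, CCSER1 and GALNT13 had 0, 2 and 1, IL1RAPL1 had 1, 2 and 0, and CNTN5 had 1, 4 and 2. In 17 of the 64 genes no replicate had a peak over 1 kb from every gene end. NCAM2 is among these 17, but a region lay within 1 kb of its own 5′ end. With depth unknown, these are genes in which no recurring peak was called over 1 kb from every gene end. Nearer to an end some did hold one, such as TMEM117, with a region of 3 replicates at 971 bp.

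Regions lay along the whole gene, with somewhat more toward the 3′ side. In the 262 genes of known strand the median distance from the 5′ end was 427 kb. When each gene was divided into 5 equal parts, the parts from 5′ to 3′ held 19.9%, 16.1%, 20.2%, 22.2% and 21.6% of 589 regions, while each held 19.8 to 20.1% of the eligible bases. The 95% Wilson interval of the second part, 13.4 to 19.3%, lay below its share of bases, and those of the other parts included theirs. These intervals cover counting error only, since regions share genes and libraries and are not replicates. Peaks of each replicate, from which the regions were merged, had 16.8% ± 0.9 in the second part and 22.7% ± 0.6 in the fourth (SD, n = 3). The counts of peaks and of regions are therefore not independent. Within 50 kb of the 5′ end lay 39 regions, and within 50 kb of the 3′ end 44. The share of eligible bases in these stretches was not computed, so the counts are not read as few or many. A separate region at the gene's own 5′ end, within 1 kb, was present for 13 of the 262 genes, NPAS3 and PTPRG among them. The share of all protein-coding genes with such a region was not counted, so whether 13 is typical is not known. Another annotated gene also covered 54 of the 685 positions (7.88%), close to the 7.75% of eligible bases so covered.

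Just above 500 kb, AFF2 (500.047 kb) had 1 region of 9.70-fold and PPP2R2B (501 kb) had 4, the strongest at 9.56-fold. Just below, DIAPH3 (498 kb) had 2, the strongest at 7.29-fold, and CPQ (498 kb) had 1 at 7.19-fold. Beside the limit of 1 kb from a gene end, regions in CADPS2 and AUTS2 at 1009 and 1026 bp were kept (means of 9.58 and 10.0-fold). Regions in STXBP5L and TMEM117 at 978.5 and 971 bp were not (5.99 and 8.58-fold). In all, 27 regions of at least 2 replicates in very long genes were left out for this reason.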

How the data were processed

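Chromatin immunoprecipitation and sequencing was analysed from 3 replicates of 1 group. The submitters' processing notes name MACS3, Bowtie2, Trim Galore, deepTools and SAMtools with build hg38. Versions, settings and filters were not given in the sources used here. Each replicate has 1 peak list that the authors deposited, with fold enrichment as a linear ratio, −log10 p and q, and a score that was not used. The smallest deposited −log10 q was 3.00. From 10326, 7779 and 9503 lines, intervals on chromosomes 1 to 22 and X were taken with their summit of highest fold enrichment.

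Gene spans and start sites came from RefSeq tables of GRCh38.p14. Spans are as that table gives them, and those of RANBP2, ANXA8 and LRRC37A2 were longer than expected. RANBP2 (1123 kb) held 3 regions, the strongest of which also lay inside EDAR. ANXA8 and LRRC37A2 held 0. Classes were compared per replicate by exact paired permutation of signs, two-sided; p-values measure the spread between these replicates only. Sequence words in the regions themselves were planned and not run, as no genome was used here; words were searched only in the 250 bases before annotated starts.

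Named genes were those holding the 12 strongest regions of all replicates, the 10 with most regions, the first 2 of each list by number of regions, the 5 longest without a region, and those at the span limit. One gene that this rule names is not reported here. Others are list members, or were named after their values were seen. The regions and lists were chosen with earlier results of these data known. The merging of peaks, the placing of regions in genes and the permutation of signs were tested on simulated data. The other steps were not. Python 3.11.15, numpy 2.4.6, pandas 2.3.3 and scipy 1.17.1 were used. Alternatives are given in the closing section.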

Additional observations from a re-analysis of the deposited data

How the results depend on the processing

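The number of regions depended on what was asked of a peak. It was 343 with −log10 q of at least 10, 333 with regions of all 3 replicates, and 418 to 487 without 1 replicate, since both remaining lists then had to hold a peak (418 without replicate 1, 446 without replicate 3). A gene span of at least 300 kb gave 1230 regions in 535 genes, and of at least 1000 kb 202 regions in 58 genes. The ratio of peaks per Mb in very long to shorter genes, unresolved at 0.976, changed side at 300 kb (1.11) and without replicate 3 (1.00), with a range of 0.960 to 1.00 without 1 replicate, and was 0.834 at 1000 kb. The ratio to stretches between genes stayed at 1.41 to 1.78. The mean ratio of median fold enrichment to shorter genes stayed below 1, at 0.961 to 0.993. Its replicates lay on both sides of 1 at 300 kb, at 1000 kb, over 5 kb from gene ends and without replicate 2. The same held with the strongest summit as the region's place. Around internal starts the ratio was 11.3 within 0.5 kb, 4.94 within 2 kb, 8.34 with −log10 q of at least 10, and 8.47 to 9.92 without 1 replicate. Of 100 counts for the 10 genes with most regions, 41 moved by over 1.5 times. Among these, 6 belong to genes shorter than 1000 kb, which that limit sets to 0 by definition. Counts at 300 kb could not change. The share in all replicates has no value without a replicate. The permutation tests pair classes of regions within each replicate's list. Between immunoprecipitated and input libraries, which share replicate numbers, no paired analysis was possible because the inputs have no values here. Depth is unknown, so a region seen in 2 replicates may have been below the caller's threshold in the other.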
